A study of Mus musculus with 12 samples.

Results

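The RNAseq data were used here to ask which responses to norepinephrine (NE) are blunted, kept or enhanced in brown adipocytes that express tSema4B, the truncated form of Semaphorin 4B that mimics its shed ectodomain. All 12 libraries enter this question, 3 in each of 4 groups. The measure is the interaction, a difference of differences on the log2 scale in which the NE response of vector cells is subtracted from the NE response of tSema4B cells. A positive interaction means that NE moved the gene higher, or lowered it less, in tSema4B cells. The members are 11998 of the 48321 genes listed, those whose normalized count reached 10 in 3 or more libraries. All cells were wild type immortalized murine brown adipocytes, made with SV40 large T antigen from interscapular preadipocytes of newborn C57BL/6J mice, transduced with a pLEX lentivirus, selected with puromycin and differentiated for 8 days. The vector groups carried the empty virus and the tSema4B groups carried the tSema4B virus, and each line was sampled without stimulation and after 6 h of 2 μM NE in serum-free medium with albumin. Each construct was studied in a single transduced line. By their labels the 3 libraries within a group are technical replicates, and no source used here states that they came from separate cultures, so the p-values cover the spread between these libraries only.

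NE released by sympathetic nerves is the main signal that activates brown fat. It acts on beta-adrenergic receptors, which raise cyclic AMP and activate protein kinase A. Protein kinase A releases fatty acids from lipid droplets through lipolysis, and it phosphorylates CREB, a transcription factor that switches on early genes such as Nr4a1 and Crem and, later, the uncoupling protein gene Ucp1. Several of the early targets, among them phosphodiesterases and the ICER products of Crem, act back on the pathway and limit it. NE also acts on metabolism, and glucose uptake, lipid synthesis and the making of new protein change alongside heat production.

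Sema4b reads, which count the construct and the endogenous gene together, took 3.58 to 4.02% of normalized counts in unstimulated vector cells and 8.53 to 10.2% in unstimulated tSema4B cells. After NE these shares lay between 2.04 and 2.57% in vector cells and between 7.01 and 8.88% in tSema4B cells, so the lines did not overlap in either condition. Reads counted on genes ranged from 2000780 to 5409583 per library, and the vector NE group was the deepest, with 4739777 to 5409583. Normalized counts summed over 12 adipocyte markers lay between 43400 and 49700 in unstimulated vector cells, 58100 and 70100 in vector cells after NE, 7520 and 10300 in unstimulated tSema4B cells, and 11700 and 13200 in tSema4B cells after NE. Without the fatty acid carrier Fabp4 the sums lay between 20500 and 25200 in unstimulated vector cells, 23200 and 24000 after NE, 4650 and 5290 in unstimulated tSema4B cells, and 6610 and 7710 after NE, so the vector ranges then overlapped. The median NE response of the 12 markers was 0.01 in vector cells and 0.39 in tSema4B cells. The lines did not overlap in either sum, and in bulk RNA fewer mature adipocytes and less RNA per adipocyte cannot be told apart. Of 13 macrophage markers only Cd14 and Csf1r passed the filter and 8 had no read in any library. The mitochondrial and 18S ribosomal RNA genes together took 11.1 to 13.5% of counts in unstimulated vector cells, 13.1 to 14.2% after NE, 6.83 to 7.6% in unstimulated tSema4B cells and 5.89 to 6.24% after NE.

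At an adjusted p of 0.05 or less by limma, the interaction was called for 3 of 11998 genes, a background of 0.025%. All 3, Lpl, Bnip3 and Idh1, had a positive interaction, and 0 genes were called with a negative one. At an unadjusted p under 0.05 there were 602 positive genes (5.02%) and 625 negative ones (5.21%). On recovered whole reads edgeR called 3 positive genes and 1 negative gene (0.00833%), and DESeq2 called 29 (0.242%) and 58 (0.483%). The single negative gene by edgeR was mt-Rnr2, the large mitochondrial ribosomal RNA, with an interaction of -0.45 and an adjusted p of 0.113 by limma and 0.0335 by edgeR. All 87 genes called by DESeq2 had the same sign and an unadjusted p under 0.05 in limma. DESeq2 gave no adjusted p for 50.4% of the genes. The limma SE of the interaction had a median of 0.18 in the highest of 4 equal bins of genes by mean count and 0.694 in the lowest, and 51.5% of the genes had a 95% interval of the interaction within 1 of 0.

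A gene counted as NE-responsive in a line when its adjusted p was 0.05 or below and its level moved by 1 or more on the log2 scale. In vector cells NE changed 316 genes, of which 199 rose (1.66%) and 117 fell (0.975%). In tSema4B cells it changed 248 genes, of which 157 rose (1.31%) and 91 fell (0.758%). The 2 sets shared 106 genes, 33.5% of the vector set and 42.7% of the tSema4B set, and all 106 moved in the same direction. Together they gave 458 NE-responsive genes, 3.82% of those tested. Of these, 2 were enhanced in tSema4B cells (Lpl and Bnip3) and 0 were blunted or opposed. These counts depend on the method, and DESeq2 on whole reads gave 11 blunted and 7 enhanced genes. Leaving out single libraries gave 0 to 2 blunted and 0 to 3 enhanced. A response was termed kept when both lines had an adjusted p of 0.05 or less in the same direction and the 95% interval of the interaction lay within 1 of 0, and 78 genes met this, 54 induced and 24 repressed. The other 378 were unresolved, and for 376 of them the interval of the interaction reached past 1 in size. In size, the fitted response was smaller in tSema4B cells for 131 of the 218 unresolved induced genes and for 94 of the 160 unresolved repressed genes.

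**Figure D1:**
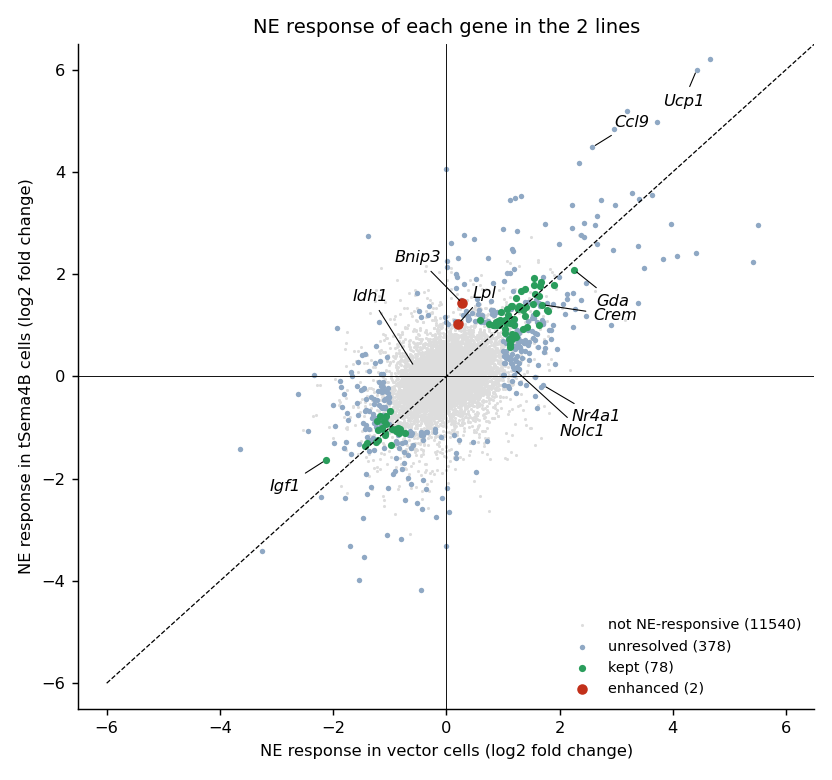
Each point is a gene, placed by its NE response in vector cells (horizontal axis, log2 fold change) and in tSema4B cells (vertical axis, log2 fold change), and coloured by its class, with the number of genes of each class in the legend. The dashed line marks equal responses. The 78 kept genes lie along it, Lpl and Bnip3 lie above it close to a vector response of 0, and Nr4a1 and Nolc1 lie below it without passing the test of the interaction.

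Lpl encodes lipoprotein lipase, which frees fatty acids from circulating triglyceride for uptake by the adipocyte. The gene (ENSMUSG00000015568) lies at chr8:68880491-68907448 of GRCm38. Its normalized counts were 7693, 7480 and 6495 in unstimulated vector cells, 8274, 8780 and 8012 in vector cells after NE, 1883, 1760 and 2063 in unstimulated tSema4B cells, and 3846, 4248 and 3566 in tSema4B cells after NE. NE libraries lay above unstimulated ones in both lines, and every tSema4B library stayed below every vector library. The NE response was 0.21 on the log2 scale in vector cells (adjusted p = 0.0927) and 1.03 in tSema4B cells (adjusted p = 2.09e-08). The interaction was 0.82 with an SE of 0.11, a 95% interval of 0.58 to 1.05 and an adjusted p of 0.00399. The deficit of tSema4B cells was 1.92 on the log2 scale without NE (-1.92, adjusted p = 1.56e-13) and 1.11 with it (-1.11, adjusted p = 1.3e-09). The interaction passed when any single library was left out, with adjusted p-values from 0.000703 to 0.0387. The tSema4B response lay close to the limit of 1, and Lpl did not count as NE-responsive without tSema4B unstimulated replicate 2, without tSema4B NE replicate 2 or after quantile normalization.

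Bnip3 encodes a mitochondrial outer membrane protein that marks mitochondria for removal by autophagy and is a textbook target of the hypoxia-inducible factor HIF-1. The gene (ENSMUSG00000078566) lies on the minus strand at chr7:138890836-138909519 of GRCm38, and 504 of its 2265 exon bases overlap an annotated antisense gene, whose reads cannot be told apart unless strand was used in counting. Its normalized counts were 517, 628 and 525 in unstimulated vector cells, 675, 631 and 714 after NE, 185, 226 and 134 in unstimulated tSema4B cells, and 490, 481 and 474 after NE. The tSema4B groups did not overlap, and in vector cells the lowest NE library lay just above the highest unstimulated one. The NE response was 0.28 in vector cells (adjusted p = 0.243) and 1.44 in tSema4B cells (adjusted p = 6.88e-07), and the interaction was 1.16 with an SE of 0.20 (adjusted p = 0.0371). The tSema4B deficit was -1.64 without NE and -0.48 with it. This call was near the threshold. It was kept without tSema4B unstimulated replicate 2 or tSema4B NE replicate 1 and was lost without each of the other 10 libraries, with adjusted p-values up to 0.127.

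Idh1 encodes the cytosolic NADP-dependent isocitrate dehydrogenase, a source of NADPH for lipid synthesis. The gene (ENSMUSG00000025950) lies on the minus strand at chr1:65158616-65186500 of GRCm38. It did not reach the 2-fold limit in either line and so belongs to no class, and it is named because only 3 genes were called. Its normalized counts were 4521, 4381 and 3430 in unstimulated vector cells, 2819, 2690 and 2797 after NE, 2064, 1895 and 1919 in unstimulated tSema4B cells, and 2228, 2243 and 2179 after NE. NE lowered it in vector cells (-0.56, adjusted p = 0.000129), while in tSema4B cells the 3 NE libraries lay slightly above the unstimulated ones (0.18, adjusted p = 0.241). The interaction was 0.74 with an SE of 0.12 (adjusted p = 0.0216). The call was lost without vector unstimulated replicate 1 or 2, any of the 3 vector NE replicates, tSema4B unstimulated replicate 3 or tSema4B NE replicate 2, with interactions of 0.66 to 0.75 and adjusted p-values up to 0.117.

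**Figure D2:**
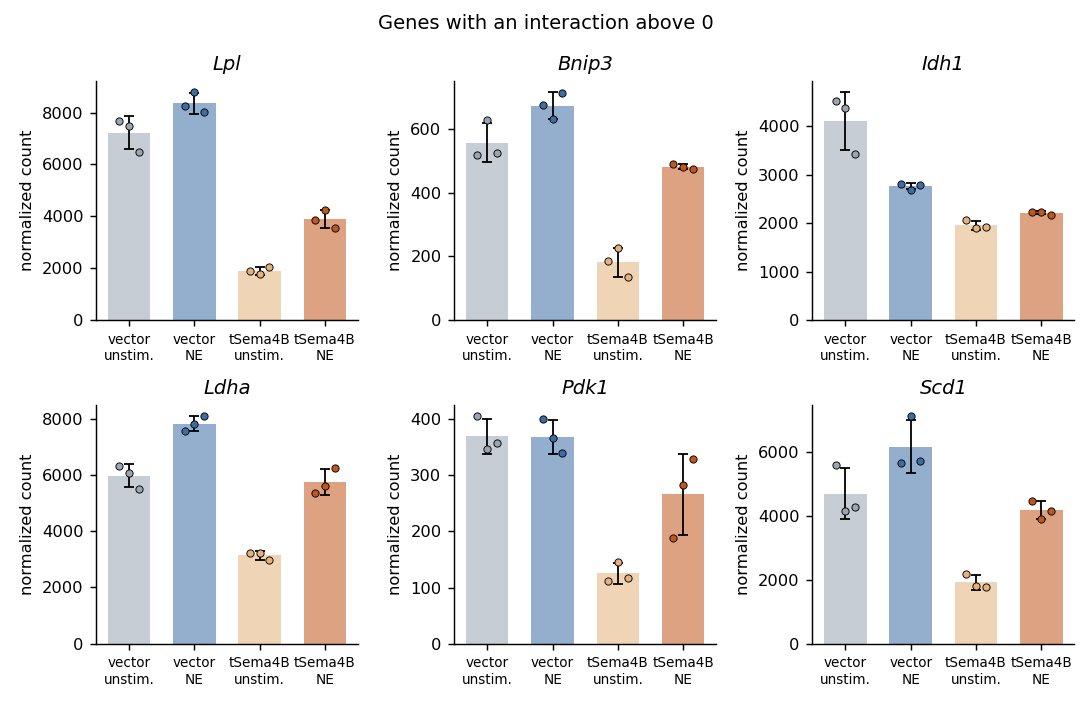
Normalized counts of 6 genes with a positive interaction in each of the 12 libraries. Points are libraries, bars are group means and error bars are the SD of 3 libraries. For all 6 genes the unstimulated tSema4B libraries are the lowest group, and after NE the levels of the 2 lines lie closer together than before it.

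Glycolysis turns glucose into pyruvate and lactate, and its genes include other targets of HIF-1. Of 34 tested genes of glycolysis, lactate and glycogen metabolism, 0 had the interaction called. At an unadjusted p under 0.05, 7 were positive (20.6%, against 5.02% of all genes) and 0 were negative, and DESeq2 called 4 as positive (background 0.242%), Ldha, Pdk1, Aldoa and Gbe1. The median NE response of the list was 0.16 in vector cells and 0.34 in tSema4B cells, and the median interaction was 0.10, beside 0.01 for all genes. It was 0.06 and 0.04 without vector unstimulated replicates 1 and 2, and 0.16 and 0.17 without vector unstimulated replicate 3 and tSema4B NE replicate 1. The share of normalized counts taken by the whole list was 0.750 to 0.837% in unstimulated vector cells, 0.919 to 0.947% in vector cells after NE, 0.544 to 0.548% in unstimulated tSema4B cells and 0.779 to 0.841% in tSema4B cells after NE. NE libraries lay above unstimulated ones in both lines, and the unstimulated tSema4B libraries were the lowest of all.

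Ldha, the muscle-type subunit of lactate dehydrogenase, had normalized counts of 6310, 6086 and 5517 in unstimulated vector cells, 7550, 7825 and 8090 after NE, 3214, 3228 and 2969 in unstimulated tSema4B cells, and 5365, 5625 and 6264 after NE. It rose in both lines, by 0.39 in vector cells (adjusted p = 0.00082) and 0.87 in tSema4B cells (adjusted p = 3.67e-08). The interaction was 0.48 with an SE of 0.10 and did not pass (limma adjusted p = 0.113, DESeq2 adjusted p = 0.00537). Libraries rescaled to one total, and quantile normalization, each added Ldha to the 3 called genes.

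Pdk1, a kinase that closes the pyruvate dehydrogenase complex, had normalized counts of 405, 346 and 357 in unstimulated vector cells, 400, 366 and 339 after NE, 112, 145 and 118 in unstimulated tSema4B cells, and 188, 282 and 329 after NE. The vector groups overlapped throughout (-0.00, adjusted p = 0.993), while tSema4B cells rose by 1.05 on the log2 scale (adjusted p = 0.00032) with no overlap, although the 3 NE libraries spread widely. The interaction was 1.06 with an SE of 0.24 (limma adjusted p = 0.113, DESeq2 adjusted p = 0.00537). Aldoa, the glycolytic aldolase, had an NE response of 0.04 in vector cells (adjusted p = 0.813) and 0.49 in tSema4B cells (adjusted p = 0.000196).

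The promoters of Bnip3 and Ldha are shown because both genes are classical targets of HIF-1, whose core site reads ACGTG or GCGTG. They run from 250 bases before to 50 bases after the start site in RefSeq (GRCm38.p6), and capitals mark the core letters on either strand. Other motifs are left in lower case, such as the full cyclic AMP response element TGACGTCA in the Ldha promoter. The palindrome CACGTG, an E-box, holds ACGTG on both strands and cannot be told from it by these letters.

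Bnip3, chr7:138909457-138909756, minus strand: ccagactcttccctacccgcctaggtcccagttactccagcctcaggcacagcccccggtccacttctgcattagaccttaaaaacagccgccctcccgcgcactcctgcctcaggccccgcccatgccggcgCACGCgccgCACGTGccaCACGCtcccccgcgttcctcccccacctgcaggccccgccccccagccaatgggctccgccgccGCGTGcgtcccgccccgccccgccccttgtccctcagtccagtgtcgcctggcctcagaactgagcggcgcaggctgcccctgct

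Ldha, chr7:46845554-46845853, plus strand: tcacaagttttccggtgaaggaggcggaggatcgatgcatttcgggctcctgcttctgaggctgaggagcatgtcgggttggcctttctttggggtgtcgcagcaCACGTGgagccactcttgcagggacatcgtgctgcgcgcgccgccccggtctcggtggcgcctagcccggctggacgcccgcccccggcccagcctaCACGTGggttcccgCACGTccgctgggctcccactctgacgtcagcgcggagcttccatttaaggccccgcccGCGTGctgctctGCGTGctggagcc

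By this count the Bnip3 promoter held 5 matches and the Ldha promoter 7, while the Idh1 promoter, read in the same way, held 1. Each CACGTG was counted once on each strand, so the matches in Bnip3 and Ldha outnumber the separate stretches in capitals. Lpl has no entry in the table. Of the 34 tested genes of the glycolysis list 32 had a promoter there, and ACGTG or GCGTG was present in 27 of these (84.4%). The share was 69.4% over the 8681 tested genes with a promoter and 43.8% over all 32851 promoters of the table, and it was as high in ribosome biogenesis genes (87.5%), kept induced genes (86.4%) and early cyclic AMP targets (83.3%). ACGTG alone was present in 59.4% of the glycolysis promoters, 54.8% of the early cyclic AMP targets, 47.7% of the kept induced genes and 29.8% of all tested genes. This motif was chosen after the values were seen, and a match is a description of letters only.

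Most lipid synthesis genes had a fitted interaction above 0, as Lpl did. Of 35 tested genes of lipogenesis and triglyceride synthesis, 0 had the interaction called, 27 lay above 0 and 8 below, beside 6107 and 5891 of all genes. At an unadjusted p under 0.05, 9 were positive (25.7%, background 5.02%) and 1 was negative (2.86%, background 5.21%). The median NE response was -0.25 in vector cells and 0.00 in tSema4B cells, and the median interaction was 0.31. It stayed between 0.22 and 0.41 when single libraries were left out. The list took 0.499 to 0.620% of counts in unstimulated vector cells and 0.475 to 0.554% after NE, which overlap, and 0.340 to 0.369% in unstimulated tSema4B cells and 0.407 to 0.446% after NE, which do not.

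Scd1, the stearoyl-CoA desaturase that makes monounsaturated fatty acids, had normalized counts of 5599, 4162 and 4283 in unstimulated vector cells, 5645, 7115 and 5704 after NE, 2186, 1811 and 1767 in unstimulated tSema4B cells, and 4459, 3910 and 4157 after NE. NE raised it in both lines, by 0.40 in vector cells (adjusted p = 0.0163) and by 1.12 in tSema4B cells (adjusted p = 3.51e-07). The interaction was 0.72 with an SE of 0.15 (limma adjusted p = 0.113, DESeq2 adjusted p = 0.00537). Scd2, a second desaturase, fell in vector cells (-0.76, adjusted p = 8.97e-05) and had a response of -0.11 in tSema4B cells (adjusted p = 0.647), with an interaction of 0.65. Cidec, a protein that enlarges lipid droplets, had normalized counts of 492, 503 and 349 in unstimulated vector cells, 444, 455 and 405 after NE, 89.4, 41.8 and 73.9 in unstimulated tSema4B cells, and 135, 177 and 132 after NE. It rose by 1.16 in tSema4B cells (adjusted p = 0.00116), and its interaction was 1.18 with an SE of 0.30 (limma adjusted p = 0.143, DESeq2 adjusted p = 0.00943).

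Cholesterol synthesis and the tricarboxylic acid cycle held more genes that NE lowered in vector cells than in tSema4B cells. NE lowered 12 of 31 tested cholesterol genes in vector cells at an adjusted p of 0.05 or less (background 4.78%) and 1 in tSema4B cells (background 2.58%). The median response was -0.44 in vector cells and -0.22 in tSema4B cells. The interaction was called for 0 of the 31, with 6 positive at an unadjusted p under 0.05 (19.4%, background 5.02%) and 0 negative (background 5.21%), and its median was 0.11. That median ranged from 0.01 without tSema4B NE replicate 3 to 0.32 without tSema4B NE replicate 2. In the tricarboxylic acid cycle list NE lowered 4 of 26 genes in vector cells and 0 in tSema4B cells. Besides Idh1, which is counted there, citrate synthase (Cs) had a response of -0.35 in vector cells (adjusted p = 0.0114) and 0.14 in tSema4B cells (adjusted p = 0.381).

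The widest shift in the negative direction lay in the genes that build ribosomes. Of 86 tested genes for cytosolic ribosomal proteins, 84 had an interaction below 0 and 2 above it, with a median of -0.54 and quartiles of -0.73 and -0.43. The interaction was called for 0 of them by limma. At an unadjusted p under 0.05, 48 were negative (55.8%, against 5.21% of all genes) and 0 were positive, and DESeq2 called 19, all negative (background 0.483%). In vector cells NE raised 36 of the 86 at an adjusted p of 0.05 or less, against a background of 6.82%, with a median response of 0.52. In tSema4B cells it raised 0 (background 3.68%), lowered 0, and the median response was -0.08. In 66 of the 86 genes all 3 vector NE libraries lay above all 3 unstimulated ones (background 17.6%), and in tSema4B cells this held for 2 (background 11.0%). The NE libraries lay below the unstimulated ones in 1 of the 86 in vector cells (background 15.7%) and in 6 in tSema4B cells (background 9.64%).

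Together these genes took 1.14, 1.06 and 1.24% of normalized counts in unstimulated vector cells, 1.42, 1.58 and 1.56% after NE, 1.36, 1.15 and 1.5% in unstimulated tSema4B cells, and 1.41, 1.20 and 1.19% after NE. The vector groups did not overlap and the tSema4B groups did. Rps24, a protein of the small subunit, had normalized counts of 373, 336 and 420 in unstimulated vector cells, 558, 691 and 603 after NE, 461, 365 and 508 in unstimulated tSema4B cells, and 458, 382 and 374 after NE. It rose by 0.71 in vector cells (adjusted p = 0.00107) with a response of -0.13 in tSema4B cells (adjusted p = 0.653). Its interaction was -0.84 with an SE of 0.19 (limma adjusted p = 0.113, DESeq2 adjusted p = 0.00537). Rpl34, of the large subunit, had an interaction of -0.96 and Rplp1, of the stalk, -0.79, both with a limma adjusted p of 0.113.

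These genes are short, and transcript length moved with the interaction. Its median was -0.09 in the shortest of 5 equal bins of genes by transcript length and 0.07 in the longest. In the shortest bin, the 57 ribosomal protein genes had a median interaction of -0.61 and the other 2331 genes -0.07, and the 29 ribosomal protein genes outside it had -0.45. After a correction of each library for length and GC content the median of all 86 was -0.44. It was -0.47 with libraries rescaled to one total, -0.45 with reads thinned to the shallowest library, and between -0.68 and -0.46 when single libraries were left out. Ribosomal protein genes have many processed pseudogenes, and how reads matching several places were treated is not given in the sources used here, so single members are uncertain.

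Ribosome biogenesis factors, which make ribosomal RNA and assemble the subunits in the nucleolus, held many genes that NE raised in vector cells and fewer in tSema4B cells. Of 59 tested genes, NE raised 41 in vector cells (background 6.82%) and 11 in tSema4B cells (background 3.68%) and lowered 0 in either. The median response was 0.79 in vector cells and 0.33 in tSema4B cells. The interaction lay below 0 in 55 of 59 genes with a median of -0.44, which was also -0.44 after the length and GC correction. It was called for 0 genes by limma, was negative at an unadjusted p under 0.05 for 18 (30.5%, background 5.21%) and positive for 0, and DESeq2 called 6 as negative (background 0.483%). The list took 0.327 to 0.350% of counts in unstimulated vector cells, 0.499 to 0.606% after NE, 0.315 to 0.351% in unstimulated tSema4B cells and 0.398 to 0.432% after NE. The 2 lines thus overlapped before NE and did not after it.

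Nolc1, a nucleolar chaperone of small nucleolar ribonucleoproteins, had normalized counts of 123, 151 and 160 in unstimulated vector cells, 376, 266 and 361 after NE, 166, 153 and 157 in unstimulated tSema4B cells, and 174, 170 and 182 after NE. It rose by 1.19 in vector cells (adjusted p = 2.01e-05), and its response in tSema4B cells was 0.14 (adjusted p = 0.676). The interaction was -1.05 with an SE of 0.22 (limma adjusted p = 0.113, DESeq2 adjusted p = 0.00537). Ncl, nucleolin, had normalized counts of 1036, 1237 and 1088 in unstimulated vector cells, 2399, 1880 and 2198 after NE, 1274, 1131 and 1175 in unstimulated tSema4B cells, and 1509, 1548 and 1506 after NE. It rose in both lines, by 0.94 in vector cells (adjusted p = 4.83e-07) and 0.35 in tSema4B cells (adjusted p = 0.0228), with an interaction of -0.59 and an SE of 0.13 (limma adjusted p = 0.113). Exons of Ncl hold small nucleolar RNA genes, whose reads may be counted with it.

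The fitted interaction was negative for 57 of 76 mitochondrial ribosomal protein genes and 63 of 81 respiratory chain genes. It was positive for 20 of 26 genes of the tricarboxylic acid cycle. Of all genes tested, 6107 lay above 0 and 5891 below. Fatty acid beta-oxidation, with 15 of 28 above 0, was near that balance, and its median interaction was 0.01 (-0.05 to 0.06 without single libraries). The median interaction was -0.20 over 76 mitochondrial ribosomal protein genes and -0.24 over 81 nuclear genes of the respiratory chain, with 0 called by limma in either list. After the length and GC correction these medians were -0.13 and -0.12, and without tSema4B unstimulated replicate 3 they were -0.11 and -0.13. The respiratory chain median was also -0.16 without vector NE replicate 2 and -0.36 without tSema4B unstimulated replicate 2. NE raised 11 mitochondrial ribosomal protein genes and 10 respiratory chain genes in vector cells (background 6.82%), and 2 and 0 in tSema4B cells (background 3.68%). Ndufc2, a subunit of complex I, rose in vector cells (0.45, adjusted p = 0.0172) and had a response of -0.25 in tSema4B cells (adjusted p = 0.257), with an interaction of -0.70. Others of the respiratory chain went the other way, such as Sdha of complex II (interaction 0.39, adjusted p = 0.25) and Uqcrc1 of complex III (0.36, adjusted p = 0.293). The 8 tested genes in the list of mitochondrially encoded genes, which leaves out the ribosomal RNA mt-Rnr2, had a median response of 0.22 in both lines. Counts of mt-Rnr2 lay between 256000 and 317400 in unstimulated vector cells and between 320000 and 344700 after NE. In tSema4B cells they lay between 141100 and 153100 without NE and between 124200 and 131400 with it.

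**Figure D3:**
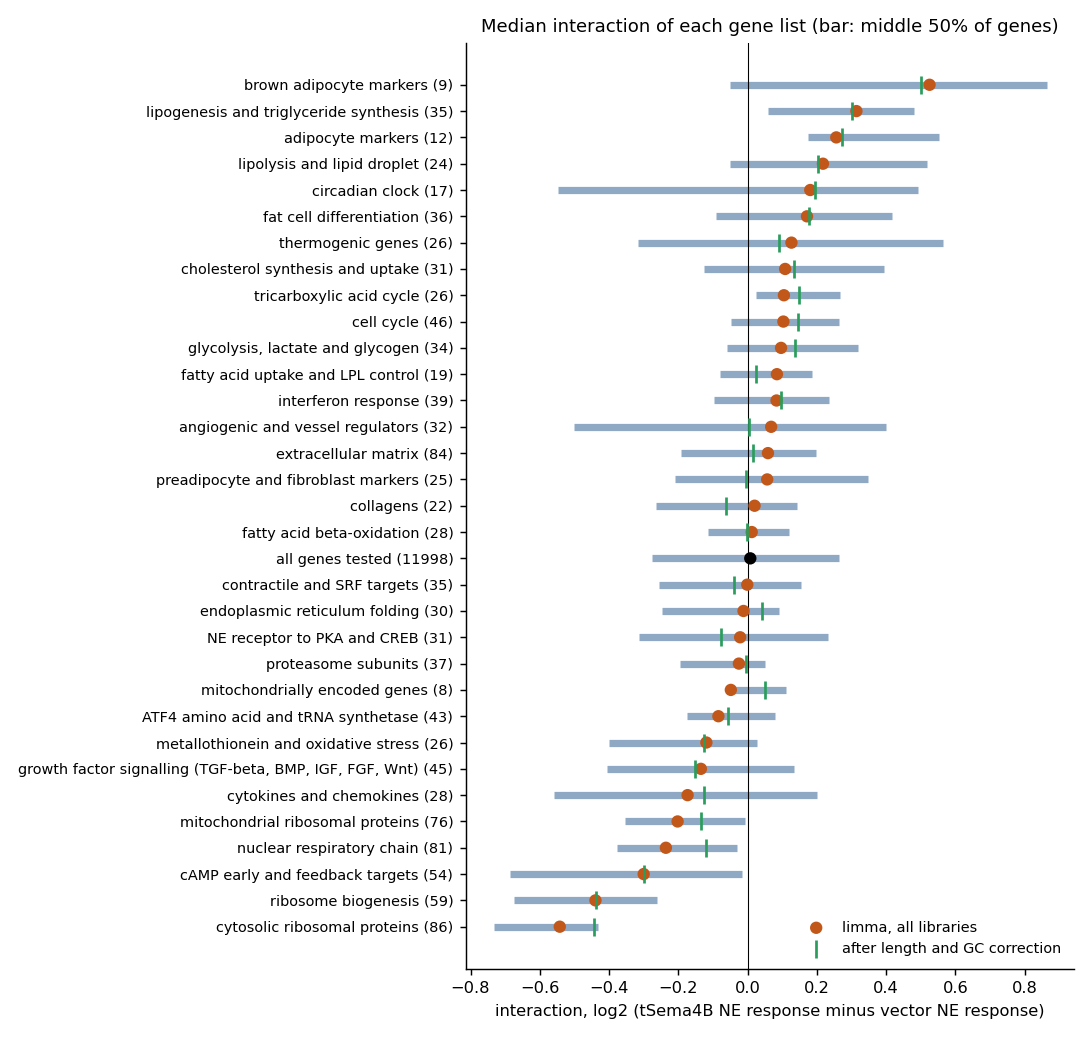
Median interaction (horizontal axis, log2) of each gene list with at least 5 tested genes, with the number of genes in brackets. Dots are list medians, horizontal bars run from the lower to the upper quartile, vertical ticks are medians after the length and GC correction, and the black dot is the median of all genes tested. Cytosolic ribosomal proteins and ribosome biogenesis lie lowest at -0.54 and -0.44, and brown adipocyte markers and lipogenesis lie highest at 0.53 and 0.31, the former over 9 genes that include Ucp1.

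Among targets that cyclic AMP switches on early, and those that feed back on it, 4 responses were kept (0.65% of all genes tested were) and 9 were unresolved, and the other genes were not NE-responsive by the limits used. Of 54 tested genes the interaction was called for 0, lay below 0 for 41 and above it for 13, and was negative at an unadjusted p under 0.05 for 7 (13.0%, background 5.21%) and positive for 1. NE raised 16 in vector cells (background 6.82%) and 11 in tSema4B cells (background 3.68%). The median response was 0.63 in vector cells and 0.25 in tSema4B cells, and the median interaction of -0.30 stayed between -0.34 and -0.20 without single libraries. The kept genes were Crem, Cebpd, Ier3 and Junb.

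Crem, whose ICER products repress CREB targets, had normalized counts of 71.7, 69.8 and 70.8 in unstimulated vector cells, 224, 219 and 249 after NE, 65.6, 80.4 and 42.4 in unstimulated tSema4B cells, and 159, 180 and 149 after NE. It rose by 1.69 in vector cells (adjusted p = 6.62e-06) and 1.40 in tSema4B cells (adjusted p = 0.00012), with an interaction of -0.29 (95% interval -0.88 to 0.31). Crem was kept in 23 of 25 alternatives. Rgs2, a regulator that shortens G protein signals, had nearly equal responses of 0.71 and 0.69, and its interval of the interaction ran from -0.34 to 0.30. Nr4a1, an orphan nuclear receptor and early CREB target, had normalized counts of 25, 41.2 and 15.3 in unstimulated vector cells, 83.3, 90.7 and 79.2 after NE, 23.8, 37.1 and 32.9 in unstimulated tSema4B cells, and 17.2, 28.4 and 41.0 after NE. The vector NE group stood above the other 3, which overlapped. It rose by 1.71 in vector cells (adjusted p = 0.00338), and its response in tSema4B cells was -0.17 (adjusted p = 0.85). The interaction was -1.88 with an SE of 0.51 and did not pass (adjusted p = 0.181, and from 0.122 to 0.386 over the alternatives).

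Pde4d and Pde4b are phosphodiesterases that break down cyclic AMP. Pde4d had normalized counts of 52.1, 48.8 and 33.8 in unstimulated vector cells, 155, 161 and 155 after NE, 62.0, 23.2 and 50.7 in unstimulated tSema4B cells, and 98.7, 54.0 and 92.5 after NE. It rose by 1.81 in vector cells (adjusted p = 0.000423) and had a response of 0.90 in tSema4B cells (adjusted p = 0.0869), where the groups overlapped. The interaction was -0.91 (95% interval -1.81 to -0.01, adjusted p = 0.482). Pde4b rose by 1.21 in vector cells (adjusted p = 0.000519), with a response of 0.53 in tSema4B cells (adjusted p = 0.151) and an interaction of -0.69 (adjusted p = 0.409). Sik1, a CREB-induced kinase that restrains CREB coactivators, had an interaction of -1.66 at counts of 12.0 to 48.4 (adjusted p = 0.259).

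**Figure D4:**
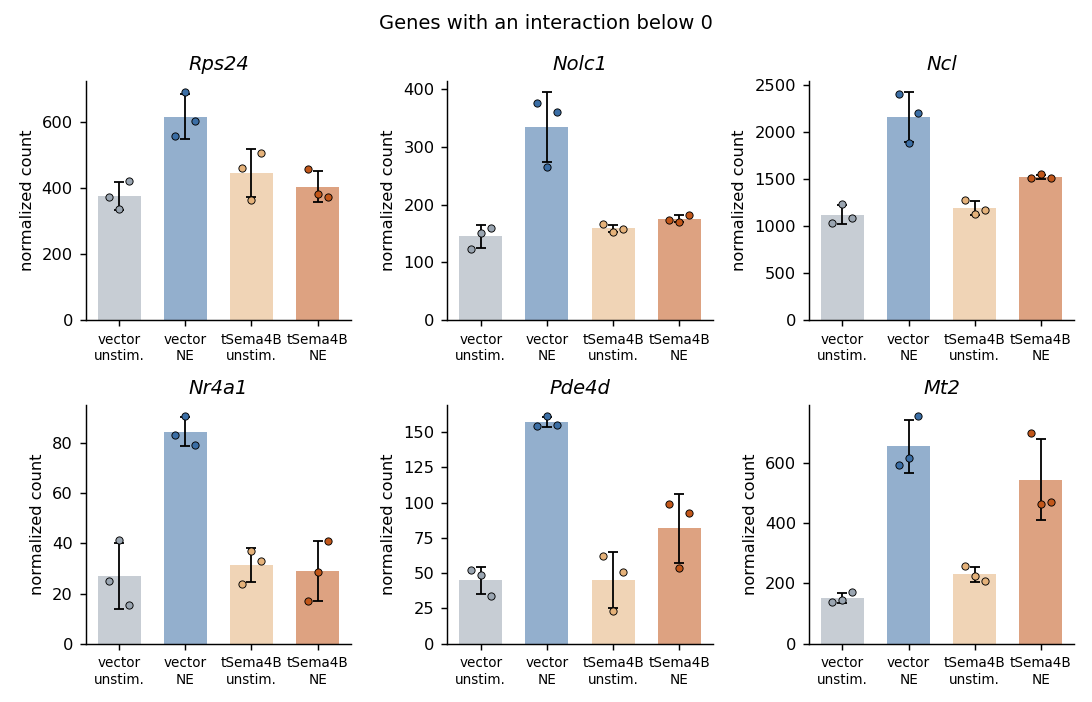
Normalized counts of 6 genes with a negative interaction in each of the 12 libraries. Points are libraries, bars are group means and error bars are the SD of 3 libraries. The vector NE libraries are the highest group mean for each gene, and for Rps24, Nolc1 and Nr4a1 the tSema4B NE libraries lie below every vector NE library and near the unstimulated groups.

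The promoters of Nr4a1, with an unresolved interaction, and Nmnat2, one of the kept responses, are shown with the short form of the cyclic AMP response element, TGACG on either strand, in capitals. This short form overlaps ACGTG where the letters read TGACGTG, and it is part of the full element TGACGTCA.

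Nr4a1, chr15:101266596-101266895, plus strand: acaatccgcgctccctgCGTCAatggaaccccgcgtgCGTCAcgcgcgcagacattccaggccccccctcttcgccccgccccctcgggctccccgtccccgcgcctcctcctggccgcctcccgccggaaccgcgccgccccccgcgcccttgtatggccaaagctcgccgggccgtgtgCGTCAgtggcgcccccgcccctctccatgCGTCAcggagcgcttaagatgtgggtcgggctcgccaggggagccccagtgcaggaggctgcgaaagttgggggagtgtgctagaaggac

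Nmnat2, chr1:152954851-152955150, plus strand: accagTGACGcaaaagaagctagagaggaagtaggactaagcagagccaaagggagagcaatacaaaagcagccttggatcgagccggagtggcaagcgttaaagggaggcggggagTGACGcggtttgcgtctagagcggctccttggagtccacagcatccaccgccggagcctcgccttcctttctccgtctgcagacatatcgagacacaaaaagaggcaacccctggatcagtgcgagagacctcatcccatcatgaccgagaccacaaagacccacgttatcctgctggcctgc

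Nr4a1 held 4 short forms and Nmnat2 held 2. Across the promoters matched, the short form was present in 28 of 42 early cyclic AMP targets (66.7%), 32 of 61 ribosomal protein genes (52.5%), 25 of 48 ribosome biogenesis genes (52.1%), 16 of 44 kept induced genes (36.4%) and 37.0% of all tested genes. The full element was present in 7 of the 42 early targets (16.7%), 1 of the 44 kept induced genes (2.27%) and 3.82% of all tested genes. In the glycolysis list it was present in 1 of 32 promoters (3.12%), that of Ldha.

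The 54 kept induced genes had a median response of 1.20 in vector cells and 1.15 in tSema4B cells, which the choice of genes with a small interaction fixes. At rest 15 of the 54 were higher in tSema4B cells and 13 were lower (adjusted p of 0.05 or below), against 5.64% and 7.39% of all genes. A kept gene needs an interval of the interaction within 1 of 0, which 51.5% of all genes had. These backgrounds are therefore not matched for precision. Gda, guanine deaminase, had the largest mean response of both lines among those named by rule. Its normalized counts were 60.8, 83.2 and 76.2 in unstimulated vector cells, 480, 286 and 314 after NE, 21.5, 34 and 28.8 in unstimulated tSema4B cells, and 84.7, 147 and 140 after NE. The responses were 2.25 and 2.08, although the level after NE in tSema4B cells stayed far below that of vector cells. Gda was kept in 19 of 25 alternatives and fell in another class in the other 6.

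Nmnat2, an enzyme of NAD synthesis, rose by 1.90 in vector cells and 1.80 in tSema4B cells, and its levels were higher in tSema4B cells. It was kept in 13 of 25 alternatives and unresolved in the other 12. Lrg1, a secreted leucine-rich glycoprotein, rose by 1.67 and 1.84 and was kept in 22 of 25 alternatives. Bmper, a secreted binding protein of bone morphogenetic proteins, had normalized counts of 135, 124 and 143 in unstimulated vector cells, 417, 348 and 422 after NE, 279, 337 and 274 in unstimulated tSema4B cells, and 952, 1153 and 1292 after NE. It rose by 1.55 in vector cells and 1.92 in tSema4B cells, with an interaction of 0.37 (95% interval -0.01 to 0.76).

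Of the 24 kept repressed genes, chosen in the same way, 13 were at rest higher in tSema4B cells (background 5.64%, again not matched for precision). At rest 2 of the 24 were lower, near the background of 7.39%. Igf1, the growth factor, had normalized counts of 224, 186 and 176 in unstimulated vector cells, 49.7, 47.4 and 35.4 after NE, 741, 583 and 696 in unstimulated tSema4B cells, and 206, 233 and 207 after NE. NE lowered it in both lines (-2.13 and -1.64), and the tSema4B libraries after NE overlapped the unstimulated vector libraries. The interaction was 0.49 (95% interval 0.02 to 0.96, adjusted p = 0.461), and Igf1 was kept in 15 of 25 alternatives and unresolved in the other 10. Ddit4l, an inhibitor of mTOR signalling, fell in both lines (-1.44 and -1.36), as did the matrix proteoglycan Aspn (-1.41 and -1.31) and the leucine-rich membrane protein gene Lrrn3 (-1.24 and -1.28). The interactions of these 3 genes lay between -0.04 and 0.10.

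In the extracellular matrix list 8 of 84 tested genes were kept, the median response was -0.29 in vector cells and -0.22 in tSema4B cells, and NE lowered 26 genes in each line (background 4.78% in vector and 2.58% in tSema4B cells). Of all genes tested 0.65% were kept. The interaction had a median of 0.06, was called for 0 genes, and its median was 0.11 without tSema4B unstimulated replicate 2 and 0.03 without tSema4B unstimulated replicate 3 or vector unstimulated replicate 3. The 22 tested collagens had median responses of -0.29 and -0.28.

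**Figure D5:**
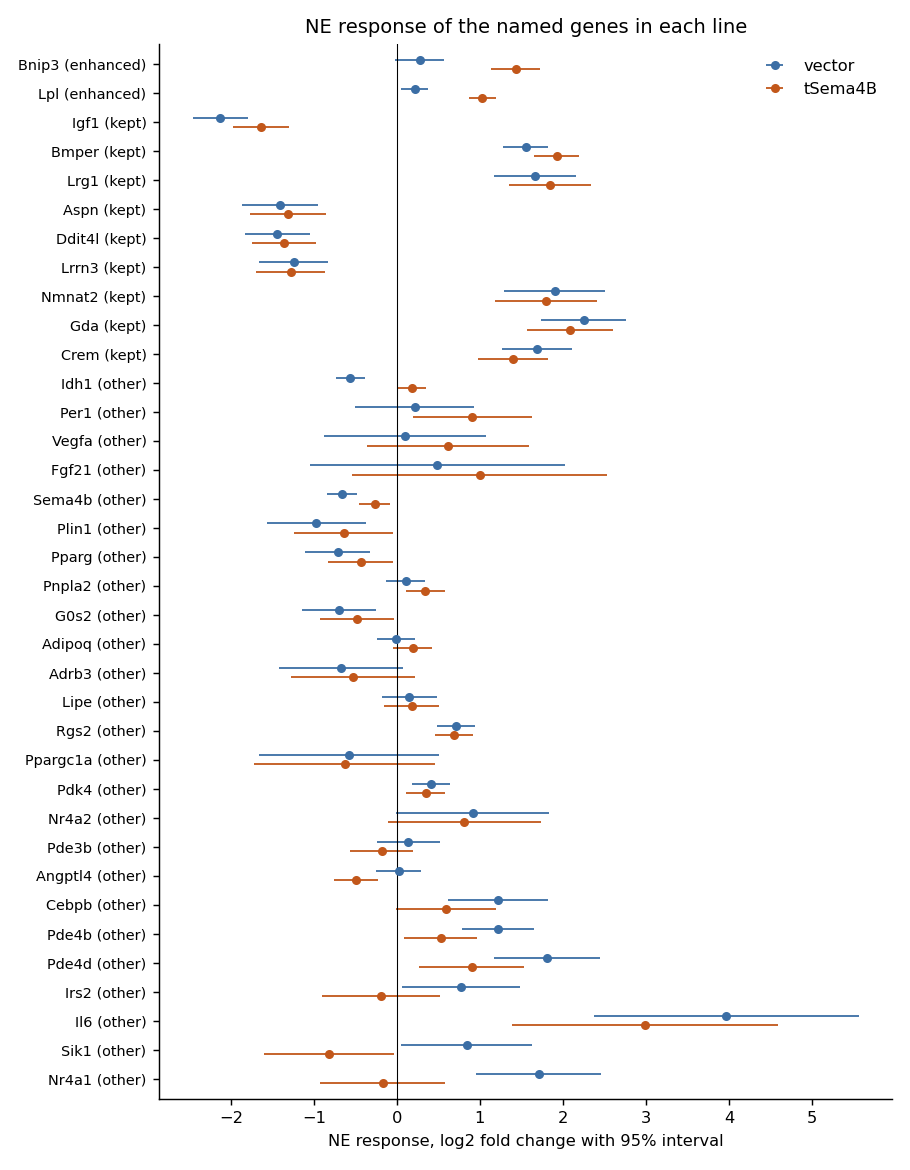
NE response (horizontal axis, log2 fold change, with its 95% interval from limma) in vector and tSema4B cells for genes named by rule, with the class in brackets. Ucp1, with no read in unstimulated tSema4B cells, is not drawn. Enhanced genes are at the top, kept genes follow, and the genes without a class are ordered by their interaction from positive to negative. The drawn intervals of the 2 lines overlap for each kept gene and are apart for Lpl, Bnip3, Idh1, Nr4a1, Sik1 and Sema4b, of which Lpl, Bnip3 and Idh1 passed the test of the interaction.

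Ucp1, the uncoupling protein that makes heat, could not be placed. Its normalized counts were 15.2, 9.25 and 12.0 in unstimulated vector cells, 293, 268 and 268 after NE, and 66.5, 61.5 and 60.8 in tSema4B cells after NE, while unstimulated tSema4B cells had 0 reads in all 3 libraries. NE raised it 22.8-fold in vector cells. Against the value of 3 reads per library, where 0 were found, it rose at least 15.3-fold in tSema4B cells. This bound lies below the vector fold and so cannot tell a smaller fold from an equal or larger one. The fitted interaction changed sign with the pseudocount, from -0.83 at 10 to 1.57 at 1. On whole reads it was 3.441 by DESeq2, without an adjusted p, and 4.535 by edgeR (edgeR adjusted p = 0.142). Dio2, the deiodinase, had no read in any library, and Adrb1, Nr4a3 and Fosb also failed the filter.

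Of 9 tested brown adipocyte markers the interaction was called for 0 and lay above 0 for 6 and below it for 3. Normalized counts summed over the 12 listed markers were 315 ± 37.1 (SD, n = 3) in unstimulated vector cells, 589 ± 15.3 after NE, 98.9 ± 13.5 in unstimulated tSema4B cells and 166 ± 3.56 after NE. Ucp1 carried this rise, and without it the sums were 303 ± 34.2, 313 ± 12.2, 98.9 ± 13.5 and 103 ± 3.88 in the same order, with overlap between NE and unstimulated libraries in both lines. Over 26 tested thermogenic genes the median response was 0.05 in vector cells and 0.28 in tSema4B cells. The interaction was called for 0 and had a median of 0.13, which ranged from -0.09 without tSema4B unstimulated replicate 2 to 0.27 without tSema4B unstimulated replicate 3. The lipases Pnpla2 (interaction 0.23, 95% interval -0.10 to 0.56) and Lipe (0.03, -0.44 to 0.50) had no called response in either line. Over 31 tested genes from the receptors to protein kinase A and CREB the median interaction was -0.02 (-0.08 to 0.01 without single libraries), and the beta-3 adrenergic receptor gene Adrb3 had no called response in either line. It lay between 67.2 and 144 normalized counts in vector cells and between 7.51 and 25 in tSema4B cells, with an interaction of 0.14 (95% interval -0.91 to 1.19).

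Metallothioneins, which bind zinc and are induced by stress and cyclic AMP, rose in both lines. Of the 588 exon bases of Mt2, 432 are shared with another annotated gene, whose reads may be counted with it. Mt2 had normalized counts of 139, 144 and 172 in unstimulated vector cells, 593, 615 and 755 after NE, 257, 226 and 207 in unstimulated tSema4B cells, and 700, 464 and 469 after NE. It rose by 2.10 in vector cells (adjusted p = 9.1e-09) and 1.22 in tSema4B cells (adjusted p = 1.97e-05), with an interaction of -0.88 (limma adjusted p = 0.137, DESeq2 adjusted p = 0.024). Mt1 rose by 1.12 and 0.63 and was kept. The list of metallothionein and oxidative stress genes had a median interaction of -0.12 over 26 genes. At an unadjusted p under 0.05, 8 of them were negative (30.8%, background 5.21%) and 2 were positive (7.69%, background 5.02%), and the negative ones included glutathione peroxidase Gpx1 (-0.81) and glutathione reductase Gsr (-0.86).

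Of 28 tested cytokine and chemokine genes the interaction was called for 0. It was positive for 4 (14.3%, background 5.02%) and negative for 2 (7.14%, background 5.21%) at an unadjusted p under 0.05. Over the whole list it lay above 0 for 10 genes and below it for 18, beside 6107 and 5891 of all genes. Its median was -0.17 (-0.30 to -0.07 without single libraries). The median NE response was 0.47 in vector cells and 0.25 in tSema4B cells. Ccl9 had normalized counts of 10.9, 43.7 and 28.3 in unstimulated vector cells, 163, 139 and 142 after NE, 17.9, 9.28 and 5.48 in unstimulated tSema4B cells, and 246, 272 and 206 after NE. It rose by 2.57 in vector cells (adjusted p = 0.000117) and 4.48 in tSema4B cells (adjusted p = 1.05e-07), and its interaction was 1.91 with an SE of 0.55 (limma adjusted p = 0.211, DESeq2 adjusted p = 0.00709). Cxcl1 rose in vector cells (1.03, adjusted p = 0.000306) and had a response of 0.25 in tSema4B cells (adjusted p = 0.445), with an interaction of -0.78. Il6, an inflammatory cytokine that brown fat also secretes, had 5 reads or fewer in every unstimulated library and was raised by NE in both lines (adjusted p = 0.00162 in vector and 0.021 in tSema4B cells). Its interaction was imprecise at -0.98 (95% interval -3.24 to 1.28). The counts summed over the macrophage markers lay between 13.1 and 21.7 in unstimulated vector cells, 41.7 and 59.6 after NE, 17.8 and 29.4 in unstimulated tSema4B cells, and 25.7 and 52.1 after NE, and their part in these chemokine values was not tested.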

How the data were processed

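RNA of 12 libraries was prepared by SMART-Seq2 and Nextera XT and sequenced single-end on a NextSeq2000. The authors screened reads with FastQ Screen, aligned them with STAR 2.7.9a, assigned them to genes with htseq-count and divided by DESeq2 size factors. The signal they deposited is thus the normalized read count of each gene. The submitters' processing notes name mm10 and GRCm38.p4. The annotation release, strand setting and treatment of multi-mapping reads are not given in the sources used here.

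Genes that reached 10 normalized counts in 3 or more libraries entered the fit, and log2(value + 1) was fitted with limma 3.58.1 (R 4.3.3) over the 4 groups. The contrasts were the NE response in each line, their difference (the interaction) and the effect of tSema4B in each condition, with Benjamini-Hochberg adjustment over all 11998 genes. Because of the pseudocount, fold changes of low genes are understated. Every value was a whole multiple of 1 read within 0.01 (100% in each library), so reads were recovered and tested with edgeR 4.0.16 and DESeq2 1.42.0 as alternatives. Recovered depth was 2000780 to 5409583 reads per library, and 3 reads were taken as the floor. The limma fit was tested on simulated data, and the edgeR and DESeq2 fits were not.

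Named genes were, for each class of response, the 5 (for kept genes 4) with the largest interaction (for kept genes the largest mean response) with a group mean of at least 50 and every group above 3 reads in at least 1 library, plus a panel of 32 genes of which 28 passed the filter. Up to 4 members of a list with the smallest interaction p, and all called genes, were also named. Members and lists were chosen with earlier results of these data known. Gene positions come from GENCODE M21 (GRCm38), and promoters from RefSeq (GRCm38.p6), which matched 8681 tested genes. Alternatives were other pseudocounts, filters, scalings, tools and thresholds, thinned reads, a replicate block and leaving out each library. The length and GC correction was added after seeing the data. The results of 1 gene of the panel are not reported here.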

Additional observations from a re-analysis of the deposited data

Results flagged for a closer look

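A test of the difference between the NE responses of the 2 lines passed for 3 genes (limma, adjusted over all genes, 3 libraries a group). The difference was 0.82 for Lpl, 1.16 for Bnip3 and 0.74 for Idh1 on the log2 scale. In each of the 3 genes the level in tSema4B cells was below that of vector cells without NE and the gap was smaller with it. The vector response alone did not pass for Lpl and Bnip3, and the tSema4B response alone did not pass for Idh1.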

How the results depend on the processing

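Lpl, Bnip3 and Idh1 were called with a positive interaction under all scalings, thinned reads and both count models. With no filter on low values 0 genes were called higher and 0 were enhanced, with adjusted p-values of 0.139 for Lpl and 0.194 for Bnip3 and Idh1. With a pseudocount of 10, 1 gene was called lower and blunted, Fgg, a fibrinogen chain. Its normalized counts lay between 1.68 and 5.45 in unstimulated vector cells and between 136 and 219 after NE. In tSema4B cells they lay between 0 and 4.11 without NE and between 5.29 and 11.8 with it. edgeR called 1 gene lower. DESeq2 called 29 higher and 58 lower, with 11 blunted and 7 enhanced. Quantile normalization left 1 enhanced. At an adjusted p of 0.01, 1 gene was higher, 1 enhanced and 15 kept repressed, and NE called 193 genes in vector and 155 in tSema4B cells. Requiring an interaction of at least 1 left 1 higher and 1 enhanced. The causes were not tested.

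Leaving out single libraries gave 1 to 9 genes higher, 0 to 22 lower, 0 to 2 blunted, 0 to 3 enhanced, 0 opposed, 42 to 52 kept induced and 19 to 26 kept repressed, with 229 to 332 NE calls in vector and 219 to 257 in tSema4B cells. Without tSema4B unstimulated replicate 2 there were 9 higher and 22 lower, of which 11 were ribosomal protein genes, and without tSema4B NE replicate 1 there were 5 and 7, of which 4 were.

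With the replicate number as a block the counts were 3 higher and 0 lower. Same-numbered libraries did not deviate together (correlations -0.05 to 0.03 over 18 pairs), so they share only a number. Over the 38 named genes 24 of 981 alternative values no longer passed the threshold, 12 of Bnip3, 10 of Idh1 and 2 of Lpl, and the other genes did not pass in any setting. The sign changed in 61 values of 15 genes, and in 0 values of Lpl, Bnip3 and Idh1. Depth limits low genes, and vector NE libraries were up to 2.7 times deeper than the shallowest library.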
